A study of Mus musculus with 14 samples.

Results

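The regions examined were those listed for H3K27ac and for H3K9me3 after doxorubicin in E14 mouse embryonic stem cells. They numbered 112259 for H3K27ac and 78890 for H3K9me3, 191149 in all, out of 351659 regions in the 7 lists of the series. Every region of these lists is a member, a region being 1 interval with its own chromosome, start and end. The question was whether an active and a heterochromatin mark stay apart in treated cells, in autosomal windows of 1 Mb and at gene ends, and where regions of either mark lie on vehicle regions of the other.

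Marks were mapped by ChIP-seq, in which an antibody pulls down crosslinked chromatin fragments that are then sequenced. Cells grew on gelatin in serum medium with LIF and the 2i inhibitors PD0325901 and CHIR99021, which hold mouse embryonic stem cells in a naive pluripotent state. Treated cells received 1 µM doxorubicin, a drug that traps topoisomerase II on broken DNA, for 6 h, then 6 h of drug-free medium, and were harvested at 12 h. Vehicle cells received DMSO on the same schedule. Both marks were profiled after either treatment with 2 libraries each, which the authors pooled before calling regions. The remaining lists come from pulldown through an HA tag on p53, from the same pulldown in cells without the tag, and from input chromatin of doxorubicin-treated cells, also 2 libraries each. The sample titles do not say whether the HA libraries came from treated cells. All libraries come from a single cell line, and nothing in the labels says whether the pooled libraries were separate cultures.

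H3K27ac is acetylation of lysine 27 of histone H3, laid down by CBP and p300 at active promoters and enhancers. H3K9me3 is trimethylation of lysine 9, placed by SETDB1 and the SUV39H enzymes and bound by HP1 proteins. In embryonic stem cells SETDB1 is brought by KRAB zinc finger proteins and TRIM28 to retroviral elements, to imprinting control regions and to the zinc finger gene clusters themselves. The marks are usually described as alternatives, since acetylated chromatin is open and HP1-bound chromatin is compact.

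Because each list pools its libraries, no value below has a replicate check and no test across replicates was possible. Intervals are 95% Wilson intervals and cover counting error only. Fragments after filtering numbered 17036528 for H3K27ac and 14402634 for H3K9me3 after doxorubicin, and 20647895 and 15992125 in vehicle. The doxorubicin lists are the longer ones despite fewer fragments (82177 and 60836 regions in vehicle), so numbers of gained and lost regions are not compared as such. The histone lists were called without a control, so places that are over-represented in plain chromatin can enter both. Overlap with the input list (2236 regions) and the untagged HA list (3979 regions) is therefore given for the overlapping regions, for genes and promoters with both marks and for named genes. Fold enrichments are the authors' own, and signal is the summit pileup per 1000000 fragments of the list (FPM).

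The embryonic stem cell identity showed in the lists. At 11 of 12 marker genes an end had H3K27ac no further than 1000 bp away after doxorubicin, and at all 12 in vehicle, with 11.7 FPM at Nanog, 8.51 at Sox2 and 6.34 at Pou5f1. The exception was Lin28a, listed only in vehicle with 0.484 FPM. H3K9me3 was at 0 of the 12 after either treatment. H3K27ac after doxorubicin was also listed at 3 of 7 trophoblast markers, 2 of 7 primitive endoderm markers and 12 of 20 fibroblast genes, with H3K9me3 at 0, 0 and 2 of these lists. Over all genes H3K27ac was at 41.2% and H3K9me3 at 10.2%. The vehicle counts of H3K27ac were 3, 2 and 6. Values at the trophoblast and endoderm genes ran from 0.587 at Cdx2 to 1.35 at Ascl2, and the highest fibroblast value was 2.23 at Fn1, whose vehicle value was 4.75. Postn, Dcn, Lum and Col1a2 had no H3K27ac after doxorubicin.

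Promoter sequences are shown because CpG content differed between promoters with either mark as a group, while single promoters varied widely. The windows below are from RefSeq (GRCm38.p6) and run from 250 bases before to 50 bases after an annotated start, 5′ to 3′ on the gene's strand, with each CpG in capitals. Cdkn1a, the gene of the cyclin-dependent kinase inhibitor p21 and a classic p53 target, has 2 such windows. The upstream window, chr17:29090729-29091028, held 2 CpG and was touched by regions of both marks after doxorubicin and in vehicle. The downstream window, chr17:29093519-29093818, held 23 CpG and was covered by H3K27ac only. Smarca5, an ISWI chromatin remodeller (chr8:80739410-80739709, minus strand, 32 CpG), carried both marks on a CpG-rich window. Of protein-coding promoters with H3K9me3 only and no input or untagged HA region, the 3 with the highest signal were Hsbp1, a regulator gene of the heat shock response (chr8:119344288-119344587, 27 CpG, 7.64 FPM), Gm52432 (15 CpG, 7.01 FPM) and Catsper3, a sperm calcium channel gene (chr13:55784329-55784628, 3 CpG, 6.18 FPM). These signals are the highest of the whole region. At Hsbp1 that region ran from 119328433 to 119344331 and reached only the upstream edge of the window. H3K27ac was listed just past the window, from 119344763 to 119345058, at 0.822 FPM. Nanog, a core pluripotency gene (chr6:122707239-122707538), had H3K27ac only, on a window of 4 CpG. Gm13212 (chr4:145584950-145585249, 7 CpG), Prss42 (chr9:110797935-110798234, 12 CpG) and Fabp3 (chr4:130308488-130308787, 22 CpG) stand for the 3 kinds of named gene described further on. All but Smarca5 are on the plus strand.
Cdkn1a upstream: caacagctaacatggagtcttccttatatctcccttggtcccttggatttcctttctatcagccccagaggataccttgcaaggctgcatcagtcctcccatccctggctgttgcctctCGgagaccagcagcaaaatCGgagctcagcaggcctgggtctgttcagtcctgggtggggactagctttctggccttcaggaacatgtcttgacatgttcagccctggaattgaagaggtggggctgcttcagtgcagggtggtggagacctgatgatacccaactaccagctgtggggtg
Cdkn1a downstream: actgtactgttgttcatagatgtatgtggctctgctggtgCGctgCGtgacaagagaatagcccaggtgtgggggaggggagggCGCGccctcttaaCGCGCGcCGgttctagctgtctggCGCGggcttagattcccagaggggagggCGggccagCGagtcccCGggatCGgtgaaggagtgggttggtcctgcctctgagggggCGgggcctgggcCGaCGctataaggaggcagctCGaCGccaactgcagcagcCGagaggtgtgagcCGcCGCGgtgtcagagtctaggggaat
Smarca5: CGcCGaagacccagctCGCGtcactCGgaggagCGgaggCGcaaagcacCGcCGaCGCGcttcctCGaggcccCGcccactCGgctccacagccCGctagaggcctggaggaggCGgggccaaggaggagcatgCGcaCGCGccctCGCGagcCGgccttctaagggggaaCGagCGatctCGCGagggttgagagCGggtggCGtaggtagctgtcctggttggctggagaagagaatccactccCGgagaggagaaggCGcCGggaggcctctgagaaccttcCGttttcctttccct
Hsbp1: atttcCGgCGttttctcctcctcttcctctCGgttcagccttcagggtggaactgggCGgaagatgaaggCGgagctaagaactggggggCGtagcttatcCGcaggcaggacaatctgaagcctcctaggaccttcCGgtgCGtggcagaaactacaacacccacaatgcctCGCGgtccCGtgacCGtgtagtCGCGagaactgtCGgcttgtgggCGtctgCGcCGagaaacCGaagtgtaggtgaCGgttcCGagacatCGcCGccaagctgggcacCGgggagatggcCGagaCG
Catsper3: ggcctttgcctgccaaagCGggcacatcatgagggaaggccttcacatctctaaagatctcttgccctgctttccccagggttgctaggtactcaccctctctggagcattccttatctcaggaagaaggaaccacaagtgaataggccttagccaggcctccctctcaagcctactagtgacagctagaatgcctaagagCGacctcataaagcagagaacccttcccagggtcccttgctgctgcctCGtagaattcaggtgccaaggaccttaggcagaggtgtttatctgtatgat
Nanog: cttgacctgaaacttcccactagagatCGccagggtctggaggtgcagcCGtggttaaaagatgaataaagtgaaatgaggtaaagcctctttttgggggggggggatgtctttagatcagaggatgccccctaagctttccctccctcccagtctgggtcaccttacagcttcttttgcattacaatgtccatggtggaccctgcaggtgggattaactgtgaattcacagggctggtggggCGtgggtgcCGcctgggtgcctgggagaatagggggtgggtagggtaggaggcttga
Gm13212: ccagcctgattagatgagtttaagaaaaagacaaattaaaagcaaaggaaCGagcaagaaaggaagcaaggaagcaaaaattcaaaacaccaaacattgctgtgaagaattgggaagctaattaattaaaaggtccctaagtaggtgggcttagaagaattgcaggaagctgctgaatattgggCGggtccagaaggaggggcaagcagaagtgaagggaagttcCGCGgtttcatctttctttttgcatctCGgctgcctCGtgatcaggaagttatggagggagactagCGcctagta
Prss42: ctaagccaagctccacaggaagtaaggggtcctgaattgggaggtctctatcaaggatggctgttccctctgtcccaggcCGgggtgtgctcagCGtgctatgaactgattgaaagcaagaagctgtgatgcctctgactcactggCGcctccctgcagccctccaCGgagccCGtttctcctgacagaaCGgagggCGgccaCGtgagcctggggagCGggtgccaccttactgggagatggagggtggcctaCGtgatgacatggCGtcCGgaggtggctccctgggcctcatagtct
Fabp3: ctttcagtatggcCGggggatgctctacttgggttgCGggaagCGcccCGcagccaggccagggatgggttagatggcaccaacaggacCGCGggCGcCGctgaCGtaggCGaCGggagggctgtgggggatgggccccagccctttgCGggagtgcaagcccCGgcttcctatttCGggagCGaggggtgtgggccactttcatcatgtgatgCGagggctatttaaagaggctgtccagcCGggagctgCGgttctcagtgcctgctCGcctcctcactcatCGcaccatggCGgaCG

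At the scale of 1 Mb the marks were nearly unrelated after doxorubicin. Acetylation followed the genes, while H3K9me3 lay at a similar density in gene-rich and gene-poor windows. Over 2434 autosomal windows the Spearman correlation of the 2 counts of regions was 0.068 and the Pearson correlation 0.006. In vehicle they were 0.12 and 0.091. Neighbouring windows are not independent, and all windows share the libraries, their depth and the base composition of the genome. The same counts correlated far more closely within a mark across treatments, with 0.97 for H3K27ac and 0.94 for H3K9me3. H3K27ac correlated with the number of protein-coding genes in a window at 0.73, and H3K9me3 at 0.11.

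Windows ranked by H3K27ac show how flat H3K9me3 was. The median number of H3K27ac regions rose from 1.00 in the lowest of 10 equal groups of windows to 154 in the highest. The median number of H3K9me3 regions stayed between 22 and 26 in all 10 groups. Both marks were present in 2379 windows (97.7%), and 21 windows held neither. Windows with a gene but no region of either mark stayed in the correlations. Among them were the first Mb of chromosomes 1, 4 and 5, with 21, 26 and 24 protein-coding genes placed there. Neither the histone lists nor the input list had a region in these windows, so their genes cannot be read as lacking the marks. Whether reads could be aligned there was not tested, and by gene number these windows also count among the gene-rich ones below.

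**Figure D1:**
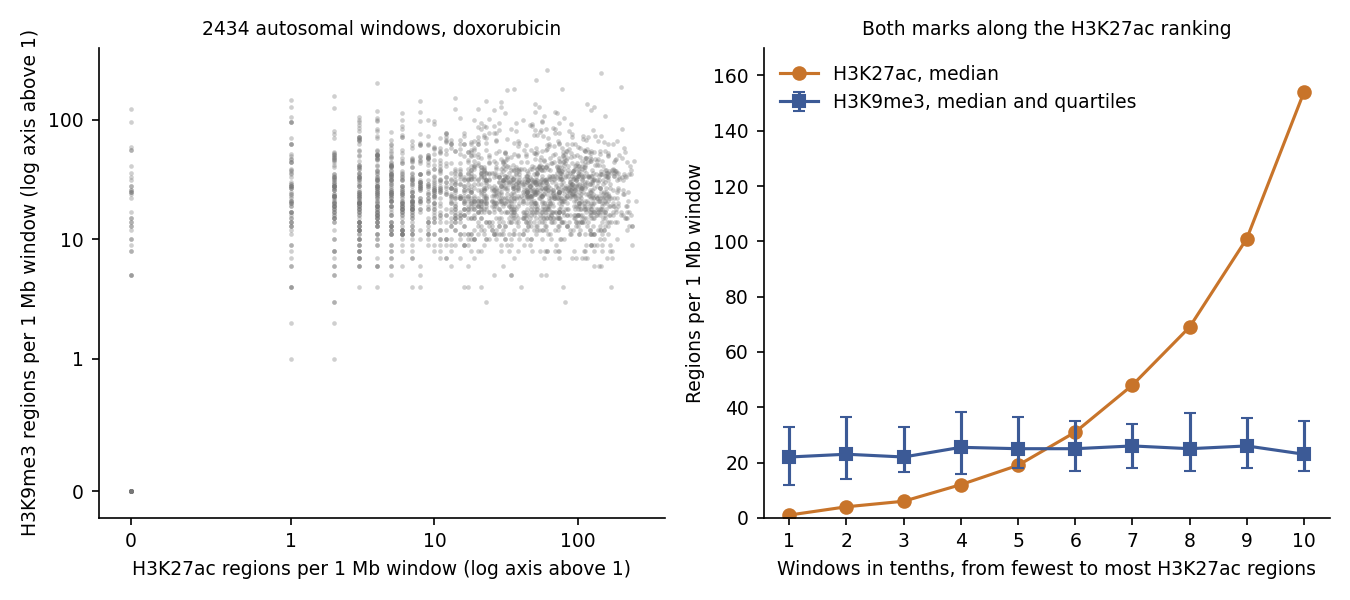
Numbers of H3K27ac and H3K9me3 regions in autosomal 1 Mb windows after doxorubicin. Left, each point is 1 of 2434 windows, on axes that are logarithmic above 1. Right, windows in 10 equal groups by H3K27ac, with the median of each mark and, for H3K9me3, quartile bars: H3K27ac climbs from 1.00 to 154 while H3K9me3 stays between 22 and 26.

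The near-zero value joined relations of opposite sign. In the 750 windows with 10 to 67 protein-coding genes the correlation was -0.26 after doxorubicin and -0.25 in vehicle. Leaving out windows with an input region gave -0.25 over 587 windows. In the 922 windows with 0 to 3 protein-coding genes it was 0.100 after doxorubicin against 0.25 in vehicle, and in the 762 between them 0.10 against 0.13. Gene-rich windows with more acetylation thus tended to hold fewer H3K9me3 regions, which was not the case in gene-poor ones. This split by gene number was made after the pooled value had been seen.

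The 5 windows with most H3K27ac held 13 to 54 protein-coding genes and between 9 and 45 H3K9me3 regions, on either side of the median of 24 over all windows. The highest, on chromosome 2 from 30 to 31 Mb around Set and Ier5l, held 251 H3K27ac and 21 H3K9me3 regions. The window on chromosome 8 from 70 to 71 Mb, which holds Gdf15, a stress-induced cytokine gene, had 235 and 9. The window on chromosome 10 from 80 to 81 Mb, with Gpx4 and Rps15, had 235 and 13, and none of these windows had an input region. Chromosome 2 from 167 to 168 Mb (Znfx1, Slc9a8) and chromosome 17 from 56 to 57 Mb (Safb2, Ranbp3) held 245 and 237 H3K27ac regions with 45 and 13 of H3K9me3.

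The windows with most H3K9me3 included gene clusters. On chromosome 7 from 11 to 12 Mb, the window of Zscan4c, Zscan4d and Zscan4f, genes of the transient 2-cell-like state of stem cells, had 203 H3K9me3 and 4 H3K27ac regions and no input region. In vehicle the same window had 124 and 4. On chromosome 4 from 147 to 148 Mb, among the zinc finger genes Zfp978, Zfp988 and Zfp991, 247 H3K9me3 regions lay with 144 H3K27ac regions, and 126 input regions fell in it. The highest H3K9me3 count, 259, was on chromosome 12 from 20 to 21 Mb with 61 H3K27ac regions, and the window before it had 214 and 51.

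A few windows were high in both. On chromosome 6 from 128 to 129 Mb, where the lectin-like receptor genes Clec2g, Klrb1c and Klrb1 lie, there were 153 H3K27ac and 107 H3K9me3 regions and no input region. Its vehicle counts were 113 and 90. On chromosome 8 from 20 to 21 Mb the counts were 199 and 186, with 254 input regions. Input regions were concentrated: 11 windows held 1012 of the 2100 autosomal input regions (48.2%). Without those windows the correlation over 2423 windows was 0.061 and the Pearson value -0.021.

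At the scale of single regions the marks overlapped more than their coverage. Of the H3K27ac regions after doxorubicin, 10186 (9.07%, interval 8.91 to 9.24) overlapped an H3K9me3 region of the same treatment. Of the H3K9me3 regions, 10100 (12.8%, 12.6 to 13) overlapped H3K27ac. The shared sequence came to 6.30 Mb, or 5.94% of the bases in H3K27ac regions, where H3K9me3 regions cover 3.18% of the autosomal windows, a ratio of 1.86. In vehicle this ratio was 1.98. The overlap was rarely a grazing one: in 56.8% of 10227 overlapping pairs the shorter region lay wholly inside the longer, and the median distance between the summits was 262 bp.

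After doxorubicin the marks were sparse just outside each other's regions. Summits of H3K27ac lay at 100 per Mb inside H3K9me3 regions, against 45.5 per Mb over all windows. In the first 500 bp outside an H3K9me3 region the density was 27.2 per Mb, below every other distance, and it was 38.0 in the next 500 bp. From 1000 bp to 100 kb it ran between 41.9 and 47.2, and beyond 100 kb it was 36.4. In vehicle H3K27ac had 79.5 inside, 30.1 in the first 500 bp, 33.1 overall and 27.9 beyond 100 kb, so that the first 500 bp were not the lowest distance. Summits of H3K9me3 gave the same shape around H3K27ac regions, with 68.9 inside, 23.7 in the first 500 bp, 26.6 to 29.4 further out and 29.9 overall. In vehicle H3K9me3 had 61.6 inside, 24.1 in the first 500 bp and 29.6 in the next, and then 18.1 to 28.2, so that its first 500 bp were not the lowest either.

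**Figure D2:**
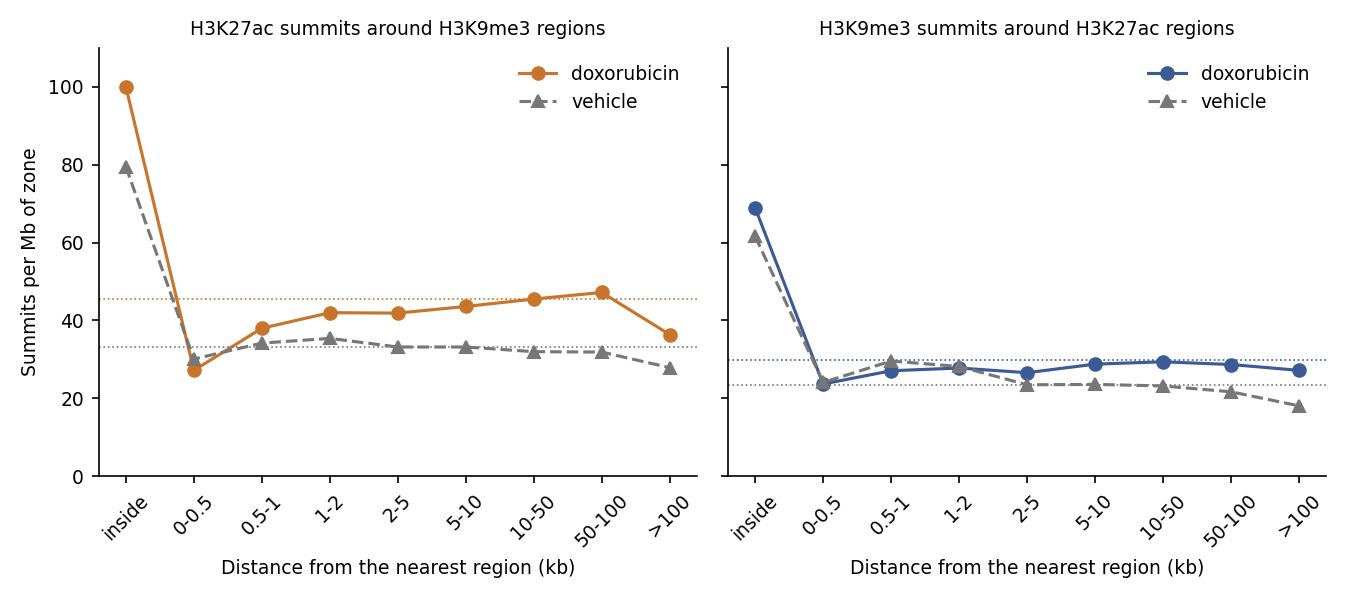
Summits per Mb of sequence by distance from the nearest region of the other mark, for H3K27ac around H3K9me3 (left) and H3K9me3 around H3K27ac (right), after doxorubicin and in vehicle. Dotted lines give the density over all autosomal windows. After doxorubicin H3K27ac goes from 100 per Mb inside to 27.2 in the first 500 bp, and H3K9me3 from 68.9 to 23.7.

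Strong regions overlapped more often than weak ones. By fold enrichment, the share of H3K27ac regions on H3K9me3 was 5.30% in the lowest of 4 equal groups, then 6.11% and 8.78%, and 16.1% in the highest. For H3K9me3 regions on H3K27ac it went from 11.1% to 15.2%. By length the shares went from 6.77% to 10.8% and from 7.72% to 19.3%, longer regions having more room to overlap.

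The overlapping regions also stood on other lists far more often. Input regions lay on 9.54% of the H3K27ac regions that overlapped H3K9me3 and on 0.296% of the others, and untagged HA regions on 13.5% and 0.896%. HA-p53 regions lay on 22.2% and 5.60%. For H3K9me3 regions with and without H3K27ac, p53 lay on 20.4% and 0.977%, and input on 9.81% and 0.535%. With every region on an input region left out, the shares were 8.22% for H3K27ac and 11.7% for H3K9me3. What plain chromatin adds to the remaining overlap was not tested.

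About as many regions of both marks lay on places with both in vehicle as on other places. Of the 10186 H3K27ac regions on H3K9me3 after doxorubicin, 5305 (52.1%, 51.1 to 53.1) lay on both vehicle marks, 17.5% on vehicle H3K27ac alone, 19.3% on vehicle H3K9me3 alone and 11.2% on neither. Of the 10100 H3K9me3 regions on H3K27ac, 5331 (52.8%) lay on both. Of 7375 vehicle H3K9me3 regions that overlapped vehicle H3K27ac, 70.6% overlapped both marks again after doxorubicin. Of the 7918 H3K27ac regions after doxorubicin on vehicle H3K9me3 (7.05%, 6.91 to 7.20), 5770 also lay on vehicle H3K27ac. Of the 8812 H3K9me3 regions on vehicle H3K27ac (11.2%, 11 to 11.4), 6694 also lay on vehicle H3K9me3.

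Where acetylation was new on vehicle heterochromatin, the heterochromatin mark was mostly listed again, as it was at vehicle H3K9me3 in general. After doxorubicin, 2148 H3K27ac regions (1.91%, 1.83 to 2.00) lay on vehicle H3K9me3 and on no vehicle H3K27ac. H3K9me3 was listed again at 1963 of them (91.4%, 90.1 to 92.5), and at 185 it was not. Among H3K27ac regions on both vehicle marks it was listed at 91.9%, and 84.4% of all vehicle H3K9me3 regions met H3K9me3 again after doxorubicin. The median fold enrichment of the 2148 was 3.74, against 3.45 for H3K27ac regions on neither vehicle mark and 5.18 for those on vehicle H3K27ac alone, and 797 had a −log10 q of at least 5. Gene ends were within 1000 bp of 9.03%, against 13.9% of the 50084 H3K27ac regions on neither vehicle mark, and 37.6% against 67.1% lay in a protein-coding gene. They were spread over 1123 windows, with at most 18 in any of them.

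Many of them lay on p53 regions, as did other H3K27ac regions that overlapped H3K9me3. HA-p53 regions lay on 27.0% (25.2 to 29.0) of the 2148, on 5.12% (4.93 to 5.31) of those on neither vehicle mark, and on 6.71% (6.50 to 6.92) of those on vehicle H3K27ac alone. On both vehicle marks the share was 20.8% (19.8 to 21.9). Regions on neither vehicle mark that overlapped H3K9me3 after doxorubicin had 21.5%. Within the 2148 it was 28.6% at the 1963 with H3K9me3 after doxorubicin and 10.3% at the 185 without. Untagged HA regions lay on 8.75% of the 2148 and input regions on 5.21%. Among the 1948 that overlapped neither of these, the p53 share was 29.2%, against 5.12% of the 49880 regions on neither vehicle mark. The 4 classes by vehicle marks also differ in place and, at medians of 450, 455, 850 and 906 bp, in length. What sets the p53 shares was not tested.

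Seen from the vehicle side, a switch from heterochromatin to acetylation alone was rare. Of 53461 vehicle H3K9me3 regions without vehicle H3K27ac, 80.0% overlapped only H3K9me3 after doxorubicin, 3.69% both marks, 0.374% only H3K27ac and 15.9% neither. HA-p53 regions lay on 28.0% of the 1973 that gained H3K27ac beside H3K9me3, on 1.19% of those that stayed with H3K9me3 alone and on 0.129% of those with neither. The 200 that went to H3K27ac alone had a p53 share of 9.50%, an input share of 6.50% and a median vehicle fold enrichment of 3.90.

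The opposite direction had a similar size. On vehicle H3K27ac without vehicle H3K9me3 lay 2118 H3K9me3 regions (2.68%, 2.57 to 2.80), and 1675 of them (79.1%, 77.3 to 80.8) still overlapped H3K27ac after doxorubicin. HA-p53 lay on 10.4% (9.16 to 11.8) of the 2118, against 1.38% of the 24943 H3K9me3 regions on neither vehicle mark. On vehicle H3K9me3 alone the share was 2.38%. It was higher than in the 2118 on both vehicle marks, at 16.3% (15.4 to 17.2). The same held on neither vehicle mark where H3K27ac overlapped after doxorubicin, at 19.5%. Untagged HA regions lay on 5.85% of the 2118 and input regions on 4.25%. Within the 2118 HA-p53 lay on 12.7% of those that still had H3K27ac and on 1.58% of the 443 that did not. Of 74826 vehicle H3K27ac regions without vehicle H3K9me3, 2.30% overlapped both marks after doxorubicin and 0.553% only H3K9me3.

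**Figure D3:**
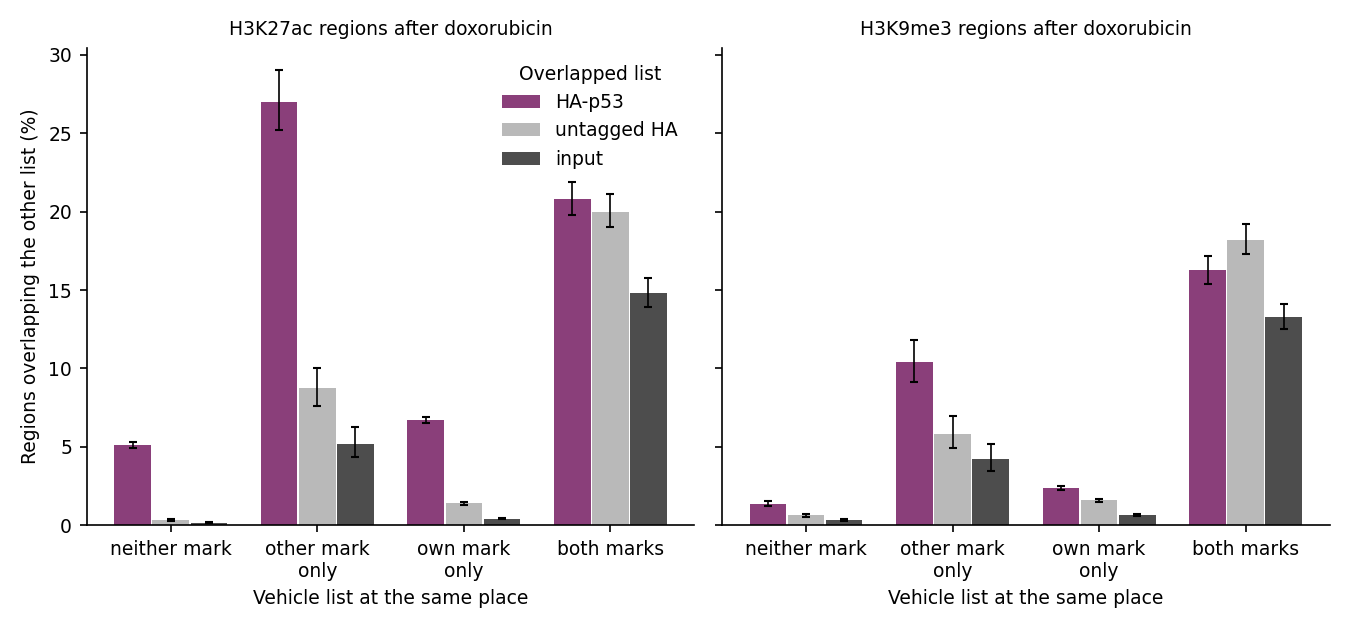
Share of H3K27ac regions (left) and H3K9me3 regions (right) after doxorubicin that overlap an HA-p53, untagged HA or input region, by what the vehicle lists hold at the same place. Bars are percentages with 95% Wilson intervals. H3K27ac regions on vehicle H3K9me3 only carry p53 at 27.0%, against 5.12% on neither mark and 20.8% on both.

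At gene ends, H3K9me3 was about as frequent with H3K27ac as without it. Of 45043 genes, 18553 (41.2%) had H3K27ac and 4588 (10.2%) H3K9me3 within 1000 bp of an end after doxorubicin, and 1828 (4.06%) had both. H3K9me3 was at 9.85% (9.43 to 10.3) of the genes with H3K27ac and at 10.4% (10.1 to 10.8) of those without. An input or untagged HA region was at 261 of the 1828 genes with both (14.3%), against 1.41% of all genes. Among protein-coding genes the shares of H3K9me3 were 7.27% and 7.75%, with intervals that overlap. Among pseudogenes H3K9me3 was more frequent with H3K27ac, at 20.4% against 13.2% (23.0% against 9.27% in vehicle), and among long non-coding genes at 13.4% against 10.5%.

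The marks parted at the promoter itself. H3K9me3 lay on 147 of 10800 promoter windows with H3K27ac (1.36%, 1.16 to 1.60) and on 572 of 22051 without it (2.59%, 2.39 to 2.81). The vehicle shares were 1.07% and 1.96%. An input or untagged HA region lay on 43 of the 147 (29.3%) and on 11 of the 572 (1.92%). Within 1000 bp of the start, in 23813 genes whose promoter entry gives a strand, H3K9me3 was at 3.38% with H3K27ac there and 5.23% without. At the far end of the same genes the order was the other way, 6.82% with H3K27ac and 5.82% without. Overlapping regions of both marks within 1000 bp of the same gene end were found at 938 genes (2.08%), 223 of them with an input or untagged HA region.

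Many genes with both marks held them at different ends. Of 1181 such genes with a known strand, 601 had H3K27ac at the start and H3K9me3 at the far end with none at the start, and 96 had the reverse. Zinc finger genes named Zfp, most of which encode DNA-binding repressors, are a case in point. H3K27ac after doxorubicin was at 281 of 372 (75.5%), H3K9me3 at 82 and both at 68 (18.3%), with overlapping regions at the same end in 16. Of the 68, 14 had an input or untagged HA region. Among the 307 with a known strand, H3K27ac was at 73.3% of starts and 15.0% of far ends. H3K9me3 was at 7.82% of starts and 17.6% of far ends, against 4.37% and 6.07% over all genes. Of the 55 with both marks and a known strand, 38 had H3K27ac at the start and H3K9me3 only at the far end, and 2 the reverse. Both marks were at the start in 15 and at the far end in 7, and these counts can share genes.

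Zfp160, on chromosome 17, is an example. H3K27ac from 21008485 to 21009565 covered its start at 21008941 with 1.82 FPM after doxorubicin and 1.94 in vehicle. H3K9me3 from 21028847 to 21031477 covered its far end at 21028857 with 2.71 and 2.31. At Zfp971, on chromosome 2, H3K27ac at 2.05 lay at the start and H3K9me3, with a fold enrichment of 11.5, at the far end.

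**Figure D4:**
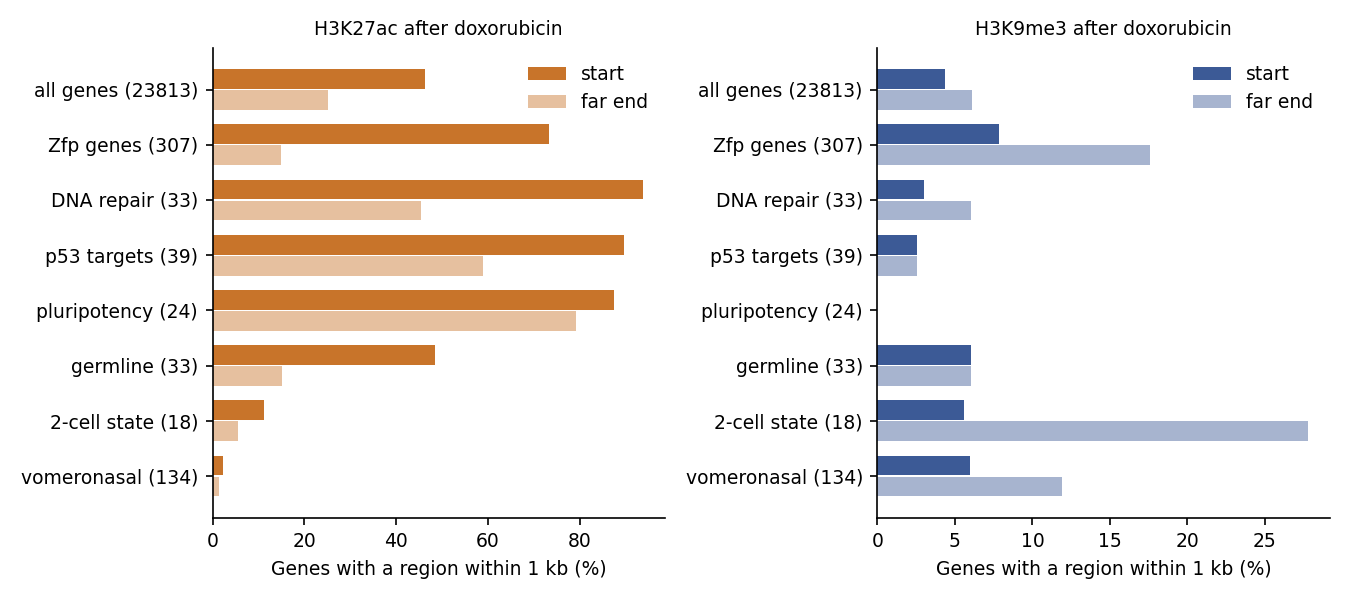
Genes with H3K27ac (left) and H3K9me3 (right) within 1 kb of the start or of the far end after doxorubicin, in percent of the genes with a known strand (number in brackets). Zfp genes have H3K27ac at 73.3% of starts and H3K9me3 at 17.6% of far ends; over all genes these are 46.3% and 6.07%.

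Other gene lists are given as counts, to be read against the 4.06% of all genes with both marks, from which a few genes in a short list cannot be told apart. Over all genes H3K27ac was at 41.2% and H3K9me3 at 10.2%. Pluripotency and lineage regulator genes had both at 0 of 40 each, with H3K27ac at 35 and 17. Hox genes had both at 0 of 39 and clustered protocadherins at 0 of 58. Olfactory receptor genes had both at 7 of 1116 and vomeronasal receptor genes at 5 of 357, with H3K9me3 at 48 and 32. Genes of the 2-cell-like state had H3K9me3 at 9 of 35 and both only at Zfp820. Of 39 germline genes, Dpep3, Hormad2 and Meiob had both. Of 39 imprinted genes only Commd1 did, of 79 histone genes H1f0 and H1f7, and of 88 ribosomal protein genes Rpl10a and Rpl39l. Germline genes with both made up 7.69%. New H3K27ac on vehicle H3K9me3 was listed at Zfp27, Vmn2r2, H1f7 and H3f3a-ps2, and new H3K9me3 on vehicle H3K27ac at Zfp36, Zfp600, Zfp870, Zfp982, Olfr543 and Rpl10a.

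Genes of the silencing machinery and of DNA repair were mostly acetylated. Of 30 genes of H3K9 methylation and silencing, 26 had H3K27ac and 2 both (6.67%). Atf7ip, which encodes a partner of SETDB1, had H3K27ac at 2.05 FPM over its start, overlapped by H3K9me3 at 0.694, and stronger H3K9me3 at 1.67 upstream. All 3 regions had counterparts in vehicle. Zfp809, whose product silences retroviruses through TRIM28, had H3K27ac at 4.17 over its start, and at the far end H3K9me3 at 1.11 with H3K27ac at 0.939. Of 45 DNA repair genes, 43 had H3K27ac and 5 both (11.1%, against 4.06% over all genes, with no test of the list): the exonuclease gene Exo1, the ligase gene Lig1, Prkdc (DNA-PKcs), Rad52 and Xrcc4. At Lig1 and Xrcc4 the H3K9me3 lay at the far end. At Prkdc an H3K9me3 region of 2.85 lay by the end away from the strong H3K27ac region. It overlapped a weak H3K27ac region of 0.470, and vehicle listed neither mark there.

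Of 50 p53 target genes, 48 had H3K27ac (96%, against 41.2% over all genes and 56.8% of protein-coding genes) and 2 had both marks, Cdkn1a and Trp53inp1, a share of 4.00% beside 4.06%. In vehicle 46 of the 50 (92.0%) had H3K27ac. At Trp53inp1, an autophagy and cell death gene, the marks were well apart: H3K27ac from 11151391 to 11157611 on chromosome 4 had 12.9 FPM, and H3K9me3 from 11174788 to 11186747, with 4.72, began beyond the other gene end. In vehicle the values were 8.77 and 3.5.

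At Cdkn1a they met at the p53 site. H3K27ac from 29088675 to 29097235 on chromosome 17 had 6.75 FPM after doxorubicin and a fold enrichment of 33.4, against 6.05 and 34.2 in vehicle. Inside it H3K9me3 was listed from 29090675 to 29091824 at 1.25 and from 29092122 to 29092754 at 0.972. In vehicle the same stretch had H3K9me3 from 29090684 to 29091075 only, at 0.813. The HA-p53 region from 29090508 to 29092240, with a fold enrichment of 64.2, spans the first of these H3K9me3 regions. Near the other gene end a new H3K27ac region from 29099925 to 29100558, at 0.763, overlapped the edge of vehicle H3K9me3, which ran from 29100488 to 29101616. After doxorubicin H3K9me3 there was at 1.39.

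Promoters with both marks resembled those with H3K9me3 in CpG content more than those with H3K27ac. Classed by the regions that overlap the window itself, the median was 6.00 CpG per 100 bases for H3K27ac only (10653 windows), 2.00 for both (147), 1.33 for H3K9me3 only (572) and 1.33 for neither (21479). Median GC content was 59.3%, 52.7%, 49.0% and 49.3% in the same classes. Classed by gene, with marks within 1000 bp of either end, the medians were 5.33, 2.67, 1.00 and 1.33.

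**Figure D5:**
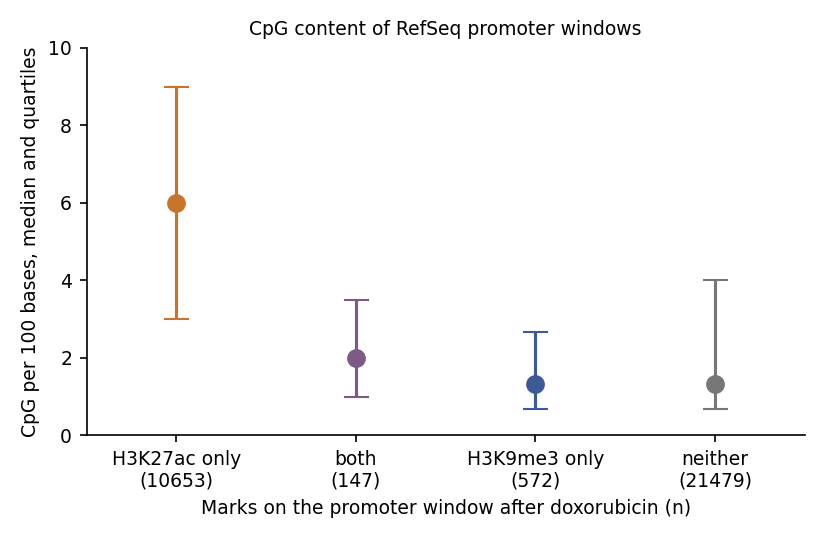
CpG per 100 bases in RefSeq promoter windows of 300 bases by the marks that overlap them after doxorubicin, as medians with quartile bars. Windows with H3K27ac only have a median of 6.00, those with both marks 2.00, and those with H3K9me3 only 1.33.

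Short motifs were counted in the same windows on either strand, with no overlap between motifs excluded. TATAAA was in 6.55% (6.10 to 7.04) of H3K27ac-only windows, 7.48% (4.23 to 12.9) of those with both marks and 16.1% (13.3 to 19.3) of those with H3K9me3 only, and in 13.6% of all. CCAAT was in 36.7%, 44.9% and 45.1%, and in 37.4% of all. CACGTG was in 10.1%, 4.76% and 4.55%, and in 7.15% of all. A match says only that these letters stand in the window.

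Among protein-coding genes with overlapping regions of both marks at the same end, the strongest signals were mostly at places also listed in input. Of the 11 genes that led by the lower of the 2 signals, 9 had an input region there. At Wls, which led, a stretch of 297 bp on chromosome 3 from 159939401 had 82.8 FPM in H3K27ac, 375 in H3K9me3 and 121 in input, all within 1 narrow place. Lars2, Mid1, Gm40469, 4930467E23Rik, 9030025P20Rik, Vmn1r48 and Gm13212 were others, with input at 0.784 to 7.66. Gm13212 had 5.17 and 3.89 with input at 1.15, and the vehicle values were 6.30 and 5.00.

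The leading genes without an input or untagged region were chosen after the first 11 had been seen. Their signals are the highest of each whole region, and some of the regions met only near their edges. There were 312 such protein-coding genes of 395. Colgalt1 and Unc13a, a collagen galactosyltransferase gene and a synaptic vesicle priming gene that share a region on chromosome 8, led with 4.34 in H3K27ac and 4.65 in H3K9me3, against 2.52 and 2.56 in vehicle. In the stretch that both marks shared after doxorubicin, vehicle H3K27ac was listed from 71625794 to 71626242, at 0.533. At Syt11, a synaptotagmin gene, the values were 2.52 and 3.26, against 1.36 and 2.38, and an HA-p53 region there had a fold enrichment of 148. At Mif, a cytokine gene, and at Pomt2, a mannosyltransferase gene, H3K9me3 was listed only after doxorubicin, at 2.92 and 3.26, while H3K27ac was at 5.28 and 7.51 against 6.25 and 4.36 in vehicle. Both were edge contacts. At Mif H3K27ac ended at 75861199 and H3K9me3 began at 75860800, and at Pomt2 these positions were 87149018 and 87148848. At Actg1, which encodes cytoplasmic actin, the values were 2.70 and 2.29 against 3.63 and 2.31.

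Genes with new acetylation on vehicle H3K9me3 numbered 198 (0.440%). Sspn, which encodes sarcospan, was among the strongest by fold enrichment: H3K27ac was listed on chromosome 6 from 145932802 to 145933352 at 1.64 FPM after doxorubicin and not in vehicle, and H3K9me3 at 2.71 against 1.63. At Prss42, a serine protease gene of the testis, the new region at 1.35 covered the printed promoter, where H3K9me3 was at 0.764 against 0.500, and an HA-p53 region with a fold enrichment of 8.88 lay in the same H3K27ac region, just upstream of that window. At Dntt, the terminal transferase gene of lymphocytes, H3K27ac at 1.29 lay with H3K9me3 at 0.764 against 0.813 and with p53 at a fold enrichment of 62.3.

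Foxk2, a forkhead factor gene, shows new acetylation within a long heterochromatin block. On chromosome 11 vehicle H3K9me3 ran from 121305961 to 121322877 at 4.19, and after doxorubicin it was listed from 121306026 to 121311396 at 3.89. Regions further from the gene are not reported here, so the shorter region cannot be read as a loss of H3K9me3. H3K27ac from 121308685 to 121309345 appeared inside the H3K9me3 region at 1.23, together with an HA-p53 region from 121308633 to 121309148 with a fold enrichment of 8.32. Vangl1 and Lrrc37a had H3K27ac at 1.29 and 1.17, with H3K9me3 in both treatments. Gm10406 and Speer4e, also named, had input regions, and Gm10406 was the gene among them without H3K9me3 there after doxorubicin.

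Genes with new H3K9me3 on vehicle H3K27ac numbered 223 (0.495%). The first was Zfp61, on chromosome 7, where H3K9me3 from 24289842 to 24290746 was listed at 2.08 after doxorubicin and not in vehicle. H3K27ac at the same place was at 5.40 against 2.18, and an HA-p53 region from 24289822 to 24291045 had a fold enrichment of 227. At Defb28, a beta-defensin gene, H3K9me3 at 1.74 and H3K27ac at 1.29 against 0.630 lay with p53 at 130. H3K27ac was higher after doxorubicin on both of these p53 sites, without a replicate to set the difference against. For H3K9me3 the direction was fixed, since the class takes only regions with none listed in vehicle.

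The others had less signal. At Fabp3, a fatty acid binding protein gene, H3K9me3 at 1.25 covered the printed CpG-rich promoter, and H3K27ac was at 2.76 against 2.32. Skp1, a ubiquitin ligase subunit gene, had H3K9me3 at 1.25 and H3K27ac at 0.587 against 0.969. Cdh3, the P-cadherin gene, had 1.18 and 1.06 against 0.630. Ppp1r14a had 1.11 and 1.35 against 0.533. At Eno3, the muscle enolase gene, the H3K9me3 region at 1.04 overlapped a vehicle H3K27ac region of 3.29 whose counterpart after doxorubicin no longer reached it. Inside the same vehicle H3K27ac region H3K9me3 was already listed in vehicle, from 70652635 to 70653443 at 0.750. Its counterpart after doxorubicin was at 0.764. Gm3667, Gm8108 and Gm7609 had input regions.

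Over all genes, a change from H3K9me3 alone to H3K27ac alone was seldom seen. Of the genes with H3K9me3 only in vehicle, 77.4% stayed so, 259 (11.5%) had both marks after doxorubicin and 40 (1.78%) had H3K27ac only. Of those with H3K27ac only in vehicle, 382 (2.52%) had both and 34 (0.224%) H3K9me3 only. The doxorubicin lists being longer, a gain of either mark was easier to list than a loss.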

How the data were processed

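Peak lists from 14 ChIP-seq libraries in 7 groups were used as deposited. Bowtie2 2.2.6 aligned the reads, per the submitters' processing notes. The genome was mm10 plus an extra contig, and MACS2 2.2.5 pooled the libraries of a group, per the file headers. Its options were BAMPE, duplicates limited to 1 per position, and q below 0.05, per the file headers. Only the HA lists had a control, the input. The signal deposited by the authors is fragment pileup at each summit. Significance was deposited by the authors as −log10 q. Enrichment was deposited by the authors as a fold, the ratio of pileup to background. Depth ran from 14402634 to 20647895 filtered fragments in the histone lists, and the lowest listed pileup was 7 to 9 fragments.

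Rows that shared an interval were joined into 1 region with the values of its highest summit, and pileup was divided by the filtered fragments of the list. Windows took regions by summit, and overlap meant at least 1 bp. Genes were 45043 coding, long non-coding and pseudogene entries of RefSeq for GRCm38.p6, on which mm10 coordinates are based. Promoter windows were 32851 entries, all matched to 27025 of these genes. Gene lists and members were chosen with earlier results of these data known. Named genes were the 10 protein-coding genes (more where a region is shared) that led 3 classes: overlapping marks at the same end, by the lower signal, and new H3K27ac on vehicle H3K9me3 or the converse, by fold. The 5 windows leading each ranking were named with up to 3 genes, and list members where they had both marks or a new mark. Cdkn1a, Smarca5, Hsbp1, Catsper3 and Nanog promoters, Zfp160, Zfp971 and the genes free of input and untagged regions were picked after their values were seen. Some genes that the rule names are not reported here.

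Shares have 95% Wilson intervals. Python 3.11.15 was used with pandas 2.3.3, numpy 2.4.6, scipy 1.17.1 and matplotlib 3.10.9. Overlaps and merging were tested on simulated data against bedtools 2.31.1, on 20000 and 12000 regions with 0 differing. Alternatives varied the q threshold, list length, input regions, required overlap, merging, distance to gene ends and window size. Repeat annotation was not used here.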

Additional observations from a re-analysis of the deposited data

How the results depend on the processing

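No paired analysis was possible because the authors pooled both libraries of a group. Fits without 1 of the libraries could not be made either. Of 59 recomputed values for 9 results, 47 moved and 2 changed sign, and the cause was not tested. A share moved when it left the Wilson interval, and a count when it changed by over 1.5 times. A correlation moved when it differed after rounding to 2 decimals, and the CpG difference when its printed value differed. These looser marks account for 9 correlations and 2 CpG differences. The correlation of the marks over windows (0.068) was 0.022 at a −log10 q of at least 5, 0.033 with equal list lengths, 0.055 without regions on input, 0.054 in 5 Mb windows, 0.13 by covered bp and 0.056 by summed pileup, and turned to -0.028 in 100 kb windows. In alternatives chosen after seeing the data it was 0.001 for regions of at least 1 FPM, 0.061 and 0.041 without windows of 50 or more, or of any, input regions, and -0.26 in gene-rich windows alone.

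The share of H3K27ac on H3K9me3 was 9.84% at the stricter q, 10.0% with equal lengths, 8.22% without input regions, 9.98% at 1 FPM, 8.24% with 0.5 of the shorter region covered and 11.1% after merging within 1000 bp. In the same order H3K9me3 on H3K27ac gave 9.73%, 10.0%, 11.7%, 8.21%, 11.6% and 15.6%. H3K27ac on vehicle H3K9me3 gave 7.53%, 9.57%, 6.20%, 7.23%, 6.27% and 8.64%, and H3K9me3 on vehicle H3K27ac 9.10%, 10.3%, 10.0%, 7.17%, 10.2% and 13.3%.

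Genes with both marks (1828) numbered 1034 at the stricter q, 1143 with equal lengths, 730 at 1 FPM, 1144 and 3636 within 500 and 2500 bp of an end, and 141 on the promoter window. New H3K27ac on vehicle H3K9me3 (2148) fell to 1072, 1222 and 733 at the stricter q, equal lengths and 1 FPM, and new H3K9me3 on vehicle H3K27ac (2118) to 1389, 959 and 935; leaving out regions on input or untagged HA, asking for more overlap or merging kept both within 1.5 times. The CpG difference between H3K27ac-only and H3K9me3-only promoters was 4.33 per 100 bases by gene, 4.00 within 2500 bp and 4.67 by overlap with the promoter. Depth limits the lists to summits of at least 0.470 and 0.486 FPM for H3K27ac and H3K9me3, so an unlisted mark may lie below them.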

Other observations

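Regions with a new mark on the vehicle mark of the other kind had a few concentrations. The window with most new H3K27ac on vehicle H3K9me3 was on chromosome 1 from 85 to 86 Mb, around Sp140, a gene of the interferon-induced SP100 family, with 18 regions and 43 input regions. A window on chromosome 16 from 3 to 4 Mb, with Olfr161, Zfp263 and Slx4, had 12 and 11 input regions. The window with most new H3K9me3 on vehicle H3K27ac was on chromosome 8 from 123 to 124 Mb, around Dpep1 and Rhou, with 19 regions and 21 input regions. On chromosome 16 from 92 to 93 Mb, around Runx1, a regulator of blood formation, there were 9, with 2 input regions.

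Chromosomes differed in how the marks were related. The correlation over 1 Mb windows after doxorubicin was positive on 15 autosomes and negative on 4. It was highest on chromosome 16, with 0.42 over 97 windows (0.44 in vehicle), and lowest on chromosome 7, with -0.13 over 144 windows (-0.09 in vehicle). H3K27ac was densest on chromosome 11, at 74.7 regions per Mb, where H3K9me3 was at its lowest, 23.3 per Mb. Chromosome 7 had the highest density of H3K9me3, 36.8 per Mb. These are descriptions over neighbouring windows of the same libraries.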
